A study of Homo sapiens with 4 samples.

Results

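In mitotic K562 cells, 396 of 1648 GATA2 peaks (24.0%, 95% exact binomial interval 22 to 26.2) were at least 400 bp wide. These wide mitotic peaks were selected on their width alone, and are described together with the 396 of 31777 asynchronous peaks that share at least 1 base with them. K562 is an established chronic myeloid leukaemia line that expresses endogenous GATA2 and can take on red cell and megakaryocytic features. Chromatin was immunoprecipitated with an antibody against GATA2 (Santa Cruz, sc-9008) from asynchronous cells and from mitotic cells, both fixed with disuccinimidyl glutarate and then formaldehyde. Mitotic cells had been arrested with nocodazole, which blocks spindle assembly, stained with MPM-2 after fixation, sorted over several rounds with less than 10% asynchronous cells remaining, and pooled. There was 1 GATA2 library per condition and the lists give only where each peak starts and ends, so no difference has a replicate check, the depth of the libraries is unknown, and every interval given here covers counting error over peaks only.

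GATA2 is a zinc finger transcription factor that binds GATA sequences and is needed for the emergence and maintenance of haematopoietic stem and progenitor cells. During mitosis chromosomes condense and most transcription stops, yet some factors stay at a subset of their sites, which is called mitotic bookmarking. At many blood enhancers GATA factors share a composite element with basic helix-loop-helix proteins such as TAL1, where an E-box remnant lies a fixed distance from the GATA sequence and LMO2 bridges the bound proteins.

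The central 300 bases of the widest mitotic peak and of the next widest are shown first, because they show how the GATA content at the centre of wide peaks varied. They lie at chr16:88455544-88455843 (ZFPM1) and chr1:227396925-227397224 (CDC42BPA). All sequences are the plus strand of the hg38 reference, not read from K562 DNA, and each is named after the protein-coding gene whose transcription start site (TSS) lies closest. Capitals mark a GATA match, which is the string AGATAA on either strand, with T also allowed as its first letter and G as its last. The ZFPM1 window held 3 matches and the CDC42BPA window 1.
ZFPM1: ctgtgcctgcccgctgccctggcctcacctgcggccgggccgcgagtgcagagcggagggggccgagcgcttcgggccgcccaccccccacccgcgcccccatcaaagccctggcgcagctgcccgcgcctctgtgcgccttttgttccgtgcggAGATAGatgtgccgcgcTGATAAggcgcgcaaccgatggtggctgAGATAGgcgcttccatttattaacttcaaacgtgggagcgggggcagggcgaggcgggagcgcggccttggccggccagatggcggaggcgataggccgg
CDC42BPA: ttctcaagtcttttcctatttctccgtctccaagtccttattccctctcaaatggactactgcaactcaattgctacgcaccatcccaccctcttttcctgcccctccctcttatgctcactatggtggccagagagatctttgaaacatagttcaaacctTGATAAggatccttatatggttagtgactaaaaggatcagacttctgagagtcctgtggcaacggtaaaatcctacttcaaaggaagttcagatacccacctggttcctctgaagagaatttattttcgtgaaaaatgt

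Stretches around a GATA:E-box composite are shown from wide peaks nearest to genes of haematopoiesis and iron storage. Their shared spacing is set by the search, and 75 of 396 wide peaks held such a composite. The composite was searched as CTG, then 8 bases of any kind, then AGATAA (T also allowed as its first letter), on either strand, and so each composite also holds a GATA match. The stretches lie at chr16:88455972-88456028 (ZFPM1), chr16:89004286-89004342 (CBFA2T3), chr19:13102849-13102905 (LYL1), chr10:92756382-92756438 (HHEX), chr1:92446786-92446842 (GFI1) and chr11:62042078-62042134 (FTH1). Capitals mark the ends of the composite, of which the GATA string comes first when it lies on the minus strand. The CBFA2T3 and LYL1 stretches hold another GATA match in lower case before the composite. There the ZFPM1 and FTH1 stretches hold only the letters GATA without a full match, on the minus strand at FTH1.
ZFPM1: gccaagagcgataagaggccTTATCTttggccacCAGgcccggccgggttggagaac
CBFA2T3: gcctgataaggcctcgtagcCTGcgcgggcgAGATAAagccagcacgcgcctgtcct
LYL1: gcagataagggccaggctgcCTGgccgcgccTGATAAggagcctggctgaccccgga
HHEX: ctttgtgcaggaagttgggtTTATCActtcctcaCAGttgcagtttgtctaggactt
GFI1: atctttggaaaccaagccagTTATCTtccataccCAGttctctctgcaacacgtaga
FTH1: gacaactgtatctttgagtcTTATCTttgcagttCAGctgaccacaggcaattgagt

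The wide peaks ranged from 400 to 1042 bp with a median of 481 bp (quartiles 438 and 564.5 bp). Of them, 225 were under 500 bp, 105 from 500 to under 600 bp, 41 from 600 to under 700 bp, 13 from 700 to under 800 bp and 12 at least 800 bp. They covered 203291 of the 532075 bp in mitotic peaks, or 38.2%. The 1252 mitotic peaks under 400 bp, called narrower here, had a median of 257.5 bp (quartiles 201 and 321 bp).

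The width threshold fell in a continuous range of values. The 14 peaks from 400 to 405 bp had a mean of 1.57 GATA matches in their central 200 bp and a median asynchronous partner of 577.5 bp. The 16 peaks from 394 to 399 bp had a mean of 1.81 and a median partner of 675 bp. Just inside were the peaks nearest to CD84, KCNMB2 and NUDT3 at 400 bp and HTR1F at 401 bp, and just outside were those nearest to MAD2L1BP at 399 bp and TRIM33, NET1, CAVIN2 and RNASET2 at 398 bp.

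Almost all wide mitotic peaks lay where asynchronous cells also had a peak. A base was shared by 394 of 396 (99.5%, 98.2 to 99.9), against 97.5% of all mitotic peaks. Among narrower peaks 1212 of 1252 shared a base (96.8%, 95.7 to 97.7), which was 2.69 percentage points less (Newcombe interval 1.13 to 3.87). A longer interval has more bases with which to meet another, and the part of width in this difference was not tested. Seen from the asynchronous list, 5.04% of the 31777 peaks shared a base with any mitotic peak and 1.25% with a wide one. The 396 partners were 24.8% (22.7 to 26.9) of the 1600 bookmarked asynchronous peaks.

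Among the wide peaks without an asynchronous peak was one of 410 bp at chr11:86301945-86302354, over a TSS of HIKESHI, a carrier that brings HSP70 into the nucleus. It held no GATA match and had 56.0% GC in its central 200 bp.

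Asynchronous partners of the wide peaks were themselves wide, which the 400 bp rule partly sets. Their median width was 790 bp, against 642 bp (quartiles 533 and 790 bp) for partners of narrower mitotic peaks and 378 bp for the whole asynchronous list. Asynchronous peaks of 681 bp or more, the 10% that are widest, held the partner of 274 wide peaks (69.2%, 64.4 to 73.7) and of 519 narrower ones (41.5%, 38.7 to 44.2). The smallest partner was 207 bp, at the promoter of MYORG, and the largest was 2590 bp. Within the wide peaks the mitotic and asynchronous widths were only loosely related, with Spearman's rho of 0.22 and Pearson's r of 0.19 over 394 peaks. These points come from the same 2 libraries and carry no test. A partner that wholly holds a wide peak, as for 299 of 396 wide peaks, must itself be at least 400 bp. Partner width thus moves in part with the width that chose the members, and that part was not tested.

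**Figure D1:**
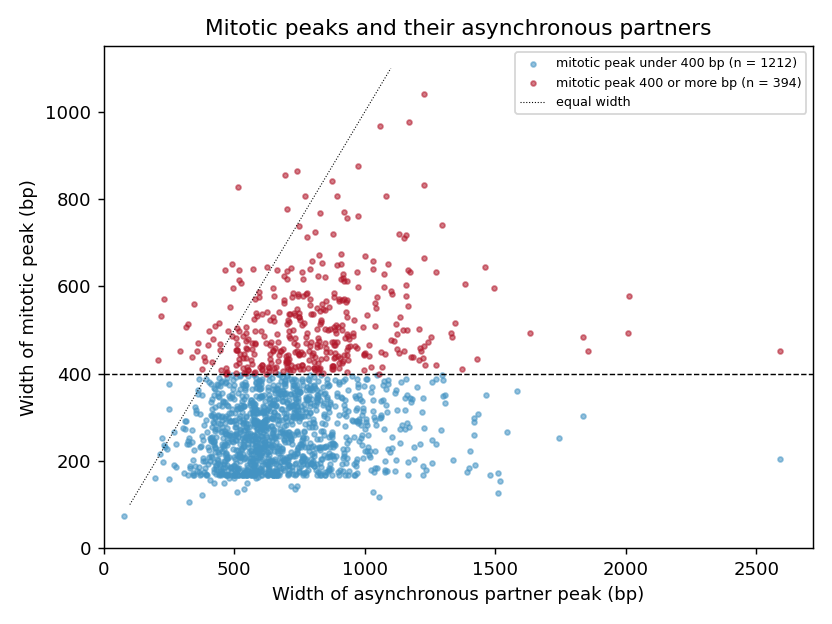
Each point is a mitotic GATA2 peak that shares a base with an asynchronous peak, with the width of its asynchronous partner (bp) on the horizontal axis and its own width (bp) on the vertical axis. The dashed line is the 400 bp threshold and the dotted line equal width. The 394 wide peaks (red) have a median partner of 790 bp and the 1212 narrower ones (blue) of 642 bp, and 36 wide peaks lie above the line of equal width.

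The share of asynchronous peaks with a wide mitotic peak was higher in each wider class of asynchronous peaks than in the one before. Below 300 bp it was 5 of 10313 (0.0485%, 0.0157 to 0.113). From 600 to under 700 bp it was 48 of 2173 (2.21%, 1.63 to 2.92) and from 800 to under 900 bp 69 of 722 (9.56%, 7.51 to 11.9). At 1200 bp or more it reached 29 of 148 (19.6%, 13.5 to 26.9). In that widest class a further 22.3% shared a base only with narrower mitotic peaks, so that 41.9% (33.8 to 50.3) were bookmarked and the rest were without a mitotic peak. An asynchronous peak under 400 bp cannot wholly hold a wide mitotic peak, and a longer one has more bases with which to meet it. The part of width in this rise was not tested.

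**Figure D2:**
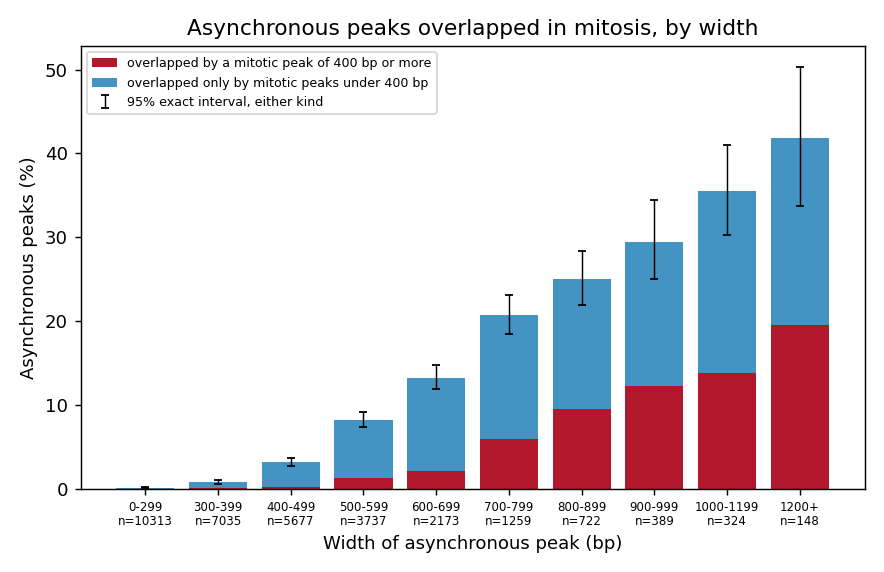
Share of asynchronous GATA2 peaks (%, vertical axis) that share a base with a mitotic peak, by width of the asynchronous peak (bp, horizontal axis, with the number of peaks in each class). Red is the share with a mitotic peak of 400 bp or more, blue the share with narrower mitotic peaks only, and bars are 95% exact binomial intervals of the sum, which reaches 41.9% at 1200 bp or more.

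Wide peaks covered a median of 63.0% of the partner (quartiles 52.6% and 76.0%), whereas narrower peaks covered 40.1% (30.3% and 51.0%), a measure that moves with the width that chose the members. Wholly inside the partner were 299 wide peaks (75.5%, 71.0 to 79.7) and 1153 narrower ones (92.1%). The other wide peaks included 95 of 394 (24.1%, 20 to 28.6) that reached beyond the partner, by a median of 74 bp (quartiles 38 and 159.5 bp). In the narrower group 59 of 1212 did so (4.87%), by a median of 23 bp. Mitotic and asynchronous midpoints lay a median of 66.0 bp apart for wide peaks and 54.0 bp for narrower ones. Only the wide peaks nearest to CYP3A5 and SH3GLB1 met more than 1 asynchronous peak.

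The 15 widest peaks were spread over many chromosomes and lay near genes of varied function. The widest, 1042 bp at chr16:88455173-88456214, lay in intron 1 of ZFPM1, 1546 bp downstream of the nearest TSS. ZFPM1 encodes FOG1, the zinc finger cofactor that binds GATA factors. Its asynchronous partner was 1226 bp, of which the mitotic peak covered 85.0%, and it held 6 GATA matches and 1 composite. Only 726 bp away lay a second wide peak of 577 bp, at chr16:88453870-88454446 and 243 bp downstream of the same TSS, with 3 GATA matches and a partner of 762 bp. The gene of the related cofactor FOG2, ZFPM2, was also among the 15. Its peak of 771 bp at chr8:105321513-105322283 lay in intron 1, 1970 bp downstream of a TSS, and held 12 GATA matches.

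The next widest peak, 976 bp at chr1:227396587-227397562, was intergenic, 78095 bp upstream of CDC42BPA, a kinase that acts on the actin cytoskeleton. It had 3 GATA matches and a partner of 1170 bp. The peak of 967 bp at chr2:237963661-237964627 lay 2200 bp upstream of UBE2F, a NEDD8-conjugating enzyme. All of its 3 GATA matches were outside the central 200 bp, and 79.6% of its partner was covered. Intron 4 of ASRGL1, an asparaginase, held a peak of 876 bp at chr11:62368448-62369323 with 3 matches. Intron 8 of WDR64 held one of 864 bp at chr1:241695666-241696529 with 2 matches, 1 of them in a composite, and here the partner of 741 bp was the narrower of the pair. The peak of 855 bp at chr6:26327412-26328266, 36893 bp upstream of the butyrophilin gene BTN3A2, also exceeded its partner, which was 693 bp and was wholly covered.

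Among the others, intron 1 of LRRN2, a leucine-rich repeat membrane protein, held a peak of 841 bp at chr1:204672236-204673076 with 6 GATA matches. Intron 2 of HDC, the histidine decarboxylase that makes histamine, held a peak of 832 bp at chr15:50260604-50261435, 1880 bp downstream of a TSS, with 8 matches and a partner of 1229 bp. Its 3 composites were the most of any wide peak. A peak of 829 bp at chr7:99693478-99694306 lay 13482 bp upstream of CYP3A5, a drug-metabolising cytochrome P450, with 4 matches. One of 808 bp at chr1:86788207-86789014 lay 53963 bp downstream of SH3GLB1, a membrane-shaping endophilin, with 4 GATA matches and 2 RUNX strings. The sulfotransferase gene SULT2A1 had a peak of 807 bp at chr19:47891540-47892346, 5225 bp upstream, with 6 matches and 1 composite. SEMA6A, a semaphorin, had one of 807 bp at chr5:116492183-116492989 in intron 6 with 6 matches, 4 of them in the central 200 bp.

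The list of 15 ended with peaks near regulators of p53 and of histone methylation. A peak of 778 bp at chr1:204506493-204507270 lay 9109 bp upstream of MDM4, an inhibitor of p53, and held 2 matches. One of 768 bp at chrX:44915204-44915971 lay in intron 2 of KDM6A, which removes methyl groups from lysine 27 of histone H3, and held 5 matches and 2 RUNX strings. In 5 of these 15 peaks (UBE2F, CYP3A5, SH3GLB1, SULT2A1 and KDM6A) no match fell in the central 200 bp.

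**Figure D3:**
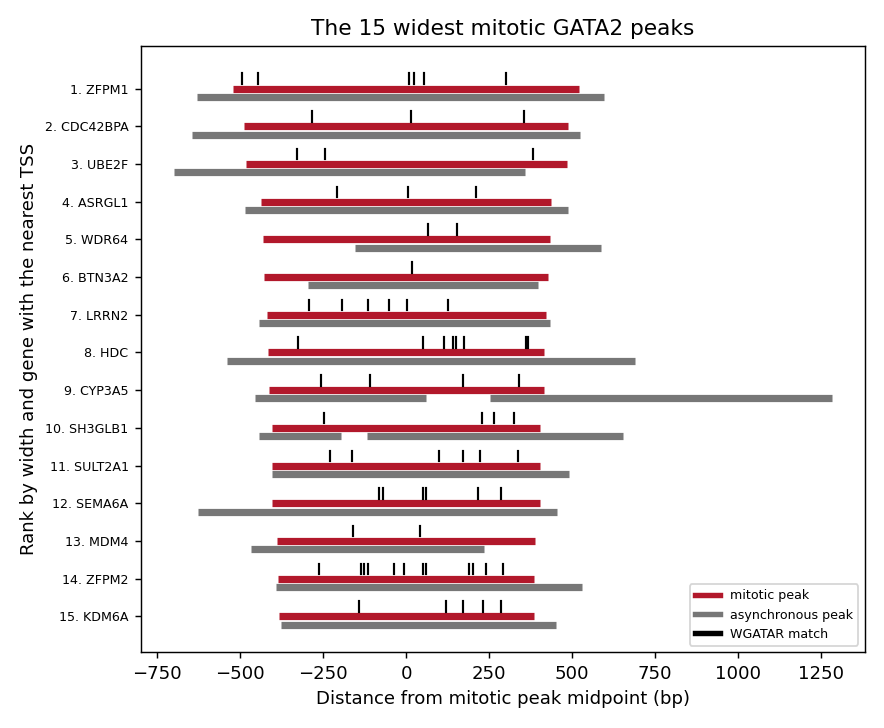
The 15 widest mitotic peaks (red bars) with their asynchronous partners (grey bars) and GATA matches inside the mitotic peak (black ticks), drawn to scale as distance from the mitotic midpoint (bp, horizontal axis) and ordered by width from top to bottom. The ZFPM1 peak at the top is 1042 bp, the ZFPM2 peak has most matches at 12, and the CYP3A5 and SH3GLB1 peaks each meet a pair of asynchronous peaks.

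Wide mitotic peaks were also assigned to genes of haematopoiesis, although most nearest genes were on none of the lists examined. Of 20033 protein-coding genes, 365 (1.82%, 1.64 to 2.02) were nearest to a wide mitotic peak. On a list of 33 haematopoietic regulators, 11 were (33.3%, 18.0 to 51.8), with 15 wide peaks between them. As a share of genes nearest to an asynchronous peak these were 11 of 30 (36.7%), against 3.65% over all genes, and as a share of genes nearest to any mitotic peak 11 of 17 (64.7%), against 27.3%. The list was drawn up with earlier results of these data known, and the counts are a description.

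The list's members with a wide peak include several that act in one complex with GATA factors and TAL1. LMO2, the bridging protein of that complex, had a peak of 425 bp at chr11:33944764-33945188, 52688 bp upstream, with 2 GATA matches. LYL1, a basic helix-loop-helix relative of TAL1, had one of 510 bp at chr19:13102481-13102990 over its TSS, with 2 matches, 1 composite and 76.5% GC in the central 200 bp. CBFA2T3, the corepressor ETO2 of the same complex, had peaks upstream at 26543 bp (712 bp wide, chr16:89003750-89004461, 6 matches) and at 15318 bp (619 bp wide, chr16:88992525-88993143, 2 matches). With the ZFPM1 pair, the wide peaks near these cofactors therefore ranged from 425 to 1042 bp. GATA2 itself, ERG, GFI1B, NFE2, TEAD1 and HES1, also on the list, were nearest to a mitotic peak but to no wide one.

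Sequence-specific factors of stem and progenitor cells also had wide peaks. RUNX1, needed for the emergence of blood stem cells, had a peak of 453 bp at chr21:34908539-34908991 in intron 2 with 6 matches, covering 39.4% of a partner of 1150 bp. GFI1, a zinc finger repressor, had one of 485 bp at chr1:92446564-92447048, 33437 bp downstream, with 6 matches and 1 composite. HHEX, a homeodomain factor, had one of 507 bp at chr10:92756144-92756650, 64112 bp downstream, with 4 matches, 1 composite and 2 ETS strings. HLF, a leucine zipper factor of stem cells, had one of 623 bp at chr17:55344382-55345004, 25429 bp downstream, with 3 matches.

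ZBTB16, which encodes PLZF, had peaks of 576 bp at chr11:114147745-114148320 in intron 2 and of 494 bp at chr11:114216253-114216746 in intron 4, each with 3 matches. The latter covered only 24.6% of a partner of 2009 bp. MYC, a driver of cell growth, was the nearest gene to a peak of 599 bp at chr8:127960245-127960843, which lay 221172 bp downstream and held 7 matches.

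Genes of the terminal lineages were described in the same way. Of 39 red cell genes (globins, membrane, heme and iron), 33 were nearest to an asynchronous peak, 10 to a mitotic peak and 3 to a wide one (7.69%, 1.62 to 20.9). As a share of genes nearest to an asynchronous peak these were 9.09%, against 3.65% over all genes, and as a share of genes nearest to a mitotic peak 30.0%, against 27.3%. The heme synthesis enzyme UROD had wide peaks of 514 bp at chr1:45038789-45039302 and 429 bp at chr1:45037546-45037974, each with 3 matches, in an exon and an intron of the neighbouring gene ZSWIM5. The iron storage protein FTH1 had one of 419 bp at chr11:62041942-62042360, 74308 bp upstream, and the mitochondrial iron carrier SLC25A37 one of 407 bp at chr8:23494099-23494505, 34451 bp upstream. Of 25 megakaryocyte and platelet genes, 16 were nearest to an asynchronous peak, 4 to a mitotic peak and 1 to a wide one (4.00%, 0.101 to 20.4). The gene with a wide peak was GP1BB, a subunit of the platelet receptor for von Willebrand factor, with a peak of 402 bp at chr22:19723337-19723738 over its TSS.

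None of 29 cytokine receptor and JAK-STAT genes was nearest to a wide peak (exact upper bound 11.9%), although 22 were nearest to an asynchronous and 5 to a mitotic peak. Nor was any of 30 mitotic spindle and cell division genes (upper bound 11.6%), of which 15 were nearest to an asynchronous peak and none to any mitotic peak. The intervals of the red cell, platelet, cytokine and spindle lists overlap one another, and all 4 include the 1.82% found over all protein-coding genes.

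Most genes had a single wide peak. There were 29 genes nearest to at least 2, and LPIN1 and MYO3B were nearest to 3 each. LPIN1 encodes a phosphatidate phosphatase and its wide peaks of 567, 563 and 536 bp lay at 118053 bp or more downstream, so that 32 asynchronous and 4 mitotic peaks shared this nearest gene. MYO3B encodes a class III myosin and had wide peaks of 582, 456 and 411 bp, the closest at 34628 bp, among 21 asynchronous and 3 mitotic peaks. Both genes are on chromosome 2, which held 55 wide of 183 mitotic peaks (30.1%, 23.5 to 37.3). Chromosome 22 held 3 of 25 (12%, 2.55 to 31.2), and for each chromosome with a mitotic peak the interval included the 24.0% found over all. No mitotic peak lay on chromosome Y.

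At 400 bp, wide and narrower peaks differed in their position relative to genes by less than the counting error. Within 3 kb of a protein-coding TSS were 78 (19.7%, 15.9 to 24.0) against 18.4% of narrower peaks, a difference of 1.33 percentage points (-2.93 to 6.0). At a threshold of 500 bp the same difference was 6.55 points (0.360 to 13.8), but the share did not rise steadily with width, since it was 18.1% from 400 to under 450 bp, 13.3% to under 500 bp, 26.7% to under 600 bp and 21.2% above. The median distance to the nearest TSS was 15463 bp, against 17260 bp. By midpoint, 48.7% of wide peaks were intergenic, 31.8% intronic outside promoters and 1.01% exonic, each within 1 percentage point of the narrower group. Of the 163 wide peaks in an intron of a canonical transcript, 65 were in intron 1 (39.9%, 32.3 to 47.8), against 170 of 524 narrower peaks (32.4%, 28.4 to 36.6).

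Another mitotic peak was within 10 kb of 46 wide peaks (11.6%, 8.63 to 15.2), against 7.91% of narrower ones, a difference of 3.71 points (0.476 to 7.50). The median gap to the nearest mitotic peak was 176050.5 bp for wide and 279899 bp for narrower peaks. Within 10 kb of another wide peak were 12 wide peaks, which include the ZFPM1 pair and the UROD pair.

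A GATA match was present in 383 wide peaks (96.7%, 94.5 to 98.2), against 95.6% of all mitotic peaks. Wide peaks had a median of 3 matches and a mean of 3.23 ± 2.47 (SD over 396 peaks), and narrower ones a mean of 2.17 ± 1.21 (SD over 1252). At least 3 matches were found in 63.1% of wide and 34.1% of narrower peaks, and at least 5 in 16.9% and 3.12%. A longer interval has more places for a match. Per kb of peak, wide peaks held 6.29 matches and narrower ones 8.25.

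In a window of equal length the order was the opposite of that in whole peaks. The central 200 bp of wide peaks held 1.72 ± 1.23 matches and that of narrower peaks 1.89 ± 1.06, a difference of -0.177 (-0.312 to -0.0423). At least 1 match was found there in 85.1% (81.2 to 88.5) of wide and 93.4% (91.8 to 94.7) of narrower peaks, a difference of -8.27 percentage points (-12.3 to -4.76). In a window of 400 bp, which for narrower peaks reaches outside the peak, the difference turned to 0.303 (0.102 to 0.504) in favour of wide peaks. By width, the mean in 200 bp was 1.36 for the 22 peaks under 150 bp, between 1.86 and 1.96 in each class from 150 to under 400 bp, and between 1.68 and 1.76 in each class from 400 bp. At a threshold of 500 bp the difference in 200 bp was -0.174, with an interval that included 0 (-0.385 to 0.0369). The central 200 bp are a smaller part of a wide peak (median 481 bp) than of a narrower one (median 257.5 bp). The part of width in the difference in 200 bp was not tested.

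The span of the matches is limited by the width that chose the members, and is given as a description. In peaks with at least 2 matches, the first and last lay a median of 217 bp apart in wide peaks (quartiles 118 and 307 bp, 345 peaks) and 100 bp in narrower ones (62 and 145 bp, 876 peaks). Neighbouring matches were a median of 67 bp apart in wide and 51 bp in narrower peaks, so that 38.3% and 49.7% of neighbours were within 50 bp. The nearest match lay a median of 34.5 bp from the midpoint in wide and 21.5 bp in narrower peaks.

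The profile of matches around the midpoint was lower in the centre and broader in wide than in narrower peaks. In the 50 bp before the midpoint wide peaks had 9.80 matches per kb and narrower ones 12.2. From 150 to 200 bp after it wide peaks had 4.60 and narrower ones 2.65. Asynchronous peaks of like width without a mitotic peak (638 bp or more, the lower quartile of the partners of wide peaks) had a lower and broader profile around their own midpoint, with 6.76 per kb in the 50 bp before it and 6.32 from 150 to 200 bp after it.

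**Figure D4:**
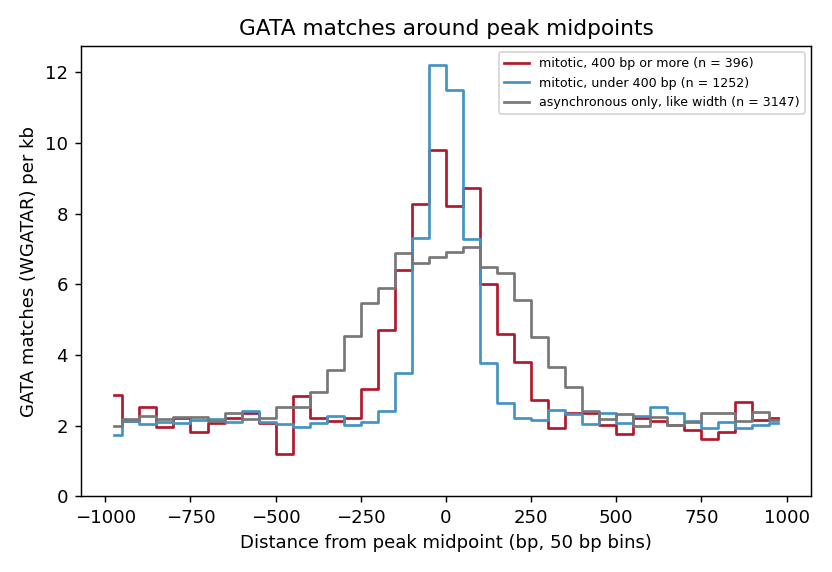
GATA matches per kb (vertical axis) in 50 bp bins of distance from the peak midpoint (bp, horizontal axis) for 396 wide mitotic peaks (red), 1252 narrower mitotic peaks (blue) and 3147 asynchronous-only peaks of like width (grey). Narrower peaks are highest in the centre (12.2 per kb, against 9.80 and 6.76), and from 150 to 200 bp after the midpoint wide peaks (4.60) lie between narrower ones (2.65) and the asynchronous-only peaks (6.32).

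Within the asynchronous partner, the stretch also called in mitosis was denser in GATA matches than the remainder. Over the partners of wide peaks, 1262 matches fell in 192502 bp inside the mitotic peak (6.56 per kb) and 367 in 127486 bp outside it (2.88 per kb), a ratio of 2.28. The mitotic peaks covered 60.2% of these bases and held 77.5% of the matches. Of 331 partners with at least 100 bp outside the mitotic peak, 288 (87.0%, 82.9 to 90.4) were denser inside. For partners of narrower peaks the densities were 8.48 and 2.80 per kb, a ratio of 3.03, and 88.8% were denser inside. Midpoints of wide peaks and partners lay a median of 66.0 bp apart, so inside against outside is largely centre against flanks. Asynchronous-only peaks of like width also fell away from their midpoint, from 6.76 per kb in the 50 bp before it to 3.58 from 350 to 300 bp before it. The part of central position in the ratios was not tested.

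The number of matches ranged widely between members. Most matches were in the peak of 653 bp at chr7:29748538-29749190, 57296 bp upstream of WIPF3, an actin regulator, which held 40 in sequence of 24.5% GC. It was singled out after its values were seen. Without it, the mean over wide peaks was 3.13 ± 1.64 in the whole peak and 1.69 ± 1.14 in the central 200 bp. At least 7 matches were found in 13 wide (3.28%) and 6 narrower peaks (0.479%), and the wide ones include those of ZFPM2, HDC and MYC.

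At the other end, 13 wide peaks (3.28%, 1.76 to 5.55) held no GATA match, against 59 narrower ones (4.71%). Within 3 kb of a TSS were 8 of these 13 (61.5%, 31.6 to 86.1) and 70 of the 383 with a match (18.3%, 14.5 to 22.5). Among narrower peaks 15 of 59 without a match (25.4%, 15.0 to 38.4) and 215 of 1193 with one (18.0%, 15.9 to 20.3) lay there. The 13 wide peaks had a median GC content of 56.0% in the central 200 bp, against 45.5% for the other wide peaks. A TSS lay inside 18 wide peaks (4.55%), of which 5 held no match (27.8%, 9.69 to 53.5), against 8 of the other 378 (2.12%, 0.918 to 4.13). These 5 are the peaks of RPL10A (a ribosomal protein), TRIM37 (a ubiquitin ligase), ZC3H8 and ZNF669 (zinc finger proteins) and HIKESHI. The partner was 219 bp at RPL10A, 441 bp at ZC3H8, 398 bp at TRIM37 and 294 bp at ZNF669, each narrower than the mitotic peak.

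The GATA:E-box composite was found in 75 wide peaks (18.9%, 15.2 to 23.2) and in 17.3% of narrower ones when the whole peak was searched, a difference of 1.69 points (-2.49 to 6.29). In the central 200 bp it was found in 39 wide peaks (9.85%, 7.10 to 13.2) and 15.4% of narrower ones, a difference of -5.57 points (-8.88 to -1.73). At a threshold of 500 bp this was -5.27, with an interval that included 0 (-9.26 to 0.303). Here too the central 200 bp are a smaller part of a wide than of a narrower peak. A spacing of 8 bases was the most frequent of those from 2 to 18 bases in the wide peaks, at 18.9%, followed by 7 bases at 13.4% and 9 bases at 9.09%, and the other spacings lay between 2.53% and 7.07%. In narrower peaks these 3 spacings were found in 17.3%, 11.6% and 7.43%.

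Strings of other blood factors were searched on both strands in the same way, as AACCACA for RUNX, AGGAAGT for ETS, TGACTCA for AP-1 (G also allowed as its middle letter), CAGCTG for an E-box and CCACACCC for the CACCC box bound by KLF factors. An E-box string may overlap the CTG of a composite. In the central 200 bp none of the 5 strings differed between wide and narrower peaks beyond its interval, with differences from -2.61 points for the E-box (-6.60 to 1.85) to 0.144 for CACCC (-0.897 to 1.86). In whole peaks all 5 were more frequent in wide ones, by 9.23 points for the E-box (4.30 to 14.4), 6.60 for RUNX (2.63 to 11.0), 5.53 for AP-1 (1.78 to 9.76), 4.58 for ETS (0.606 to 9.0) and 2.19 for CACCC (0.481 to 4.62). The whole wide peaks are longer, and that part of the difference was not tested. A match says only that these letters occur, not that the factor is bound.

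**Figure D5:**
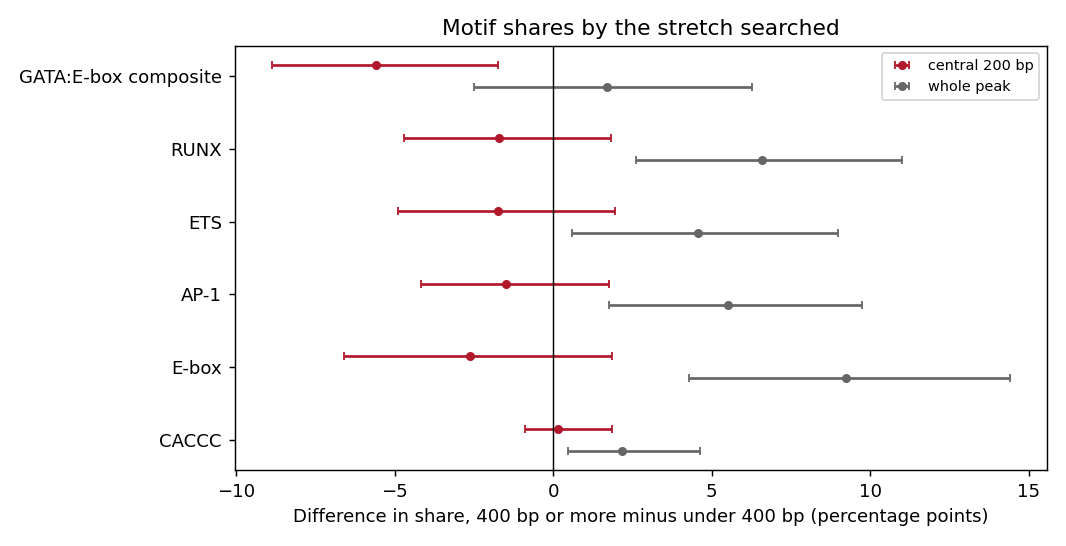
Difference in the share of peaks with a motif string (percentage points, horizontal axis), mitotic peaks of 400 bp or more minus those under 400 bp, for the central 200 bp (red) and the whole peak (grey), with 95% Newcombe intervals over peaks. The composite lies at -5.57 in the central 200 bp and at 1.69 in the whole peak, and the intervals of the 5 other strings include 0 in the central 200 bp and lie above 0 in the whole peak.

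The GC content of the central 200 bp was 46.8 ± 7.85% in wide and 46.5 ± 6.89% in narrower peaks (SD over peaks), a difference of 0.287 points (-0.575 to 1.15). In 400 bp, which for narrower peaks reaches outside the peak, the difference was 0.848 points with an interval above 0 (0.0296 to 1.67). Among wide peaks the GC content of the central 200 bp ranged from 24.5% at WIPF3 to 76.5% at LYL1. Those with a TSS inside had a median of 64.8% and the others 45.0%.

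Against asynchronous peaks of like width that had no mitotic peak, the partners of wide mitotic peaks held more GATA matches around their centre. The 396 partners held 1.62 ± 1.27 matches in the central 200 bp and the 3147 asynchronous-only peaks 1.33 ± 1.80, a difference of 0.291 (0.151 to 0.431). Over the whole asynchronous peak the means were in the opposite order, 4.13 ± 2.87 for partners and 4.42 ± 5.93 for asynchronous-only peaks, with a median of 4 in both. In the central 200 bp the mean was also 1.62 over the 1204 partners of narrower peaks only (median 640 bp wide). It was 1.62 too over all 30177 asynchronous-only peaks (median 367 bp wide). Neither of these was matched in width to the partners of wide peaks. The floor of 638 bp was set on the asynchronous-only peaks alone, and with both groups held to the quartile range of partner width the difference was 0.385 (0.191 to 0.579). At least 2 matches were found in 52.8% (47.7 to 57.8) of partners and 35.0% (33.4 to 36.7) of asynchronous-only peaks, a difference of 17.7 points (12.5 to 22.9), and in 51.3% of partners of narrower peaks only and 45.0% of all asynchronous-only peaks. The composite was found in 9.85% and 7.02% (difference 2.83, 0.0965 to 6.26) and the E-box string in 18.2% and 13% (5.15, 1.46 to 9.41). For RUNX, ETS, AP-1 and CACCC strings the intervals of the difference included 0. The partners had 46.4% GC and the asynchronous-only peaks 44.3% (difference 2.13, 1.31 to 2.95). Within 3 kb of a TSS lay 19.4% of partners and 21.7% of asynchronous-only peaks (difference -2.26, -6.15 to 2.15). The higher composite share was not particular to partners of wide peaks. In partners of narrower peaks only it was 13% (11.2 to 15.1), against 9.85% (7.10 to 13.2), with overlapping intervals. These partners of narrower peaks held the E-box string in 15.6% and had 45.9% GC. Over all asynchronous-only peaks the values were 8.18% for the composite, 14.7% for the E-box string and 44.9% GC.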

How the data were processed

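GATA2 ChIP-seq peak lists of asynchronous and mitotic K562 cells were used (1 library each, grouped by the labelled condition), and the 2 input libraries were not used. The deposited values are genomic positions in bp on hg38, with no score, height or p-value. Submitters' processing notes name BWA 0.7.12, MACS2 2.1.0, Genrich 0.6.1 and deepTools 2.5.4. Uniquely mapped reads were kept and blacklisted peaks removed by the authors. How the calls of both programs were combined, and at which thresholds, is not given in the sources used here. Peak width, number and overlap can depend on these choices and on depth, which the lists do not hold.

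Mitotic peaks with end minus start of at least 400 bp were selected. Sharing 1 base counted as overlap, and the partner is the asynchronous peak sharing most bases. Peaks were assigned to the protein-coding gene (GENCODE 44) whose TSS, of any transcript, lay closest to the peak edge, and were placed by midpoint. Strings were counted in the hg38 reference on both strands, in 200 bp around the midpoint as the main window. Shares carry exact binomial and differences Newcombe intervals, and differences of means intervals from standard errors, all at 95%. No test between conditions was made. Overlaps, GATA string counts and the intervals of differences were tested on simulated data, whereas gene assignment and placement were not.

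The genes named are those nearest to the 15 widest peaks, those nearest to 3 or more wide peaks, genes of 5 lists (haematopoietic regulators, red cell, platelet, cytokine and spindle genes) nearest to a wide peak, members without an asynchronous peak and peaks beside the threshold. Some of these genes, and some sequences, are not reported here. The members and lists were chosen with earlier results of these data known. Alternatives changed the width threshold, overlap rule, search window, strings, gene assignment and compared peaks. Scripts ran in Python 3.11.15 with scipy 1.17.1, numpy 2.4.6, pandas 2.3.3 and matplotlib 3.10.9.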

Additional observations from a re-analysis of the deposited data

How the results depend on the processing

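The window searched changed the sign of the GATA and composite differences. The difference in GATA matches (wide minus narrower) was -0.177 in 200 bp and 0.303 in 400 bp. Per kb of whole peak it was -2.20 (-2.68 to -1.72) as a difference of means over peaks, a measure unlike the rates of 6.29 and 8.25 over all bases. The composite's difference was -5.57 points in 200 bp, -1.11 in 400 bp and 1.69 in whole peaks, and in whole peaks the differences were 6.60 for RUNX, 4.58 for ETS, 5.53 for AP-1, 9.23 for the E-box and 2.19 for CACCC. At 500 bp or more, 171 peaks were wide, the median partner was 834 bp and the TSS difference 6.55 points; at 350 bp or more the median partner was 752 bp. A reciprocal overlap of 50% left 78.3% of wide peaks shared, with a median partner of 732 bp, and midpoints within 200 bp left 90.4%. Against asynchronous-only peaks of at least the partners' median width the GATA difference was 0.433. The other 27 values stayed within the interval of the main value or within 1.5 times the main count, but at 500 bp or more the intervals of the GATA (-0.174, -0.385 to 0.0369) and composite differences (-5.27, -9.26 to 0.303) included 0. The interval of the GC difference lay above 0 in 400 bp (0.848, 0.0296 to 1.67) and included 0 in 200 bp. The 27 values include 2 settings added after the data were seen: both groups held to the quartile range of partner width (0.385) and the wide peak with most GATA matches left out (-0.201). No paired analysis was possible because each condition has 1 library, and for the same reason no replicate could be left out. Depth and peak calling could not be varied.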
